A study of Mus musculus with 9 samples.

Results

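Probe sets that departed from the rest of their gene in the interfollicular epidermis (IFE) of the mouse tail were collected from an exon array, on which a gene is read by several probe sets, each a group of probes for a short stretch of its transcripts. For every array, the index of a probe set was its log2 intensity minus the median log2 intensity of all probe sets of its gene, so an index of 0 is the gene's own level. Genes entered with 6 or more probe sets and a median log2 intensity of 7 or more in each compartment mean, which left 6016 genes and 89440 probe sets of the 154736 deposited. A probe set was kept where its mean index in IFE differed from both the sebaceous gland (SG) and the hair follicle (HF) by 1 or more in the same direction, with the 3 IFE arrays all beyond the other 6. This left 641 probe sets in 481 genes. The members were chosen by their index values in IFE against the other compartments, so these values are given as descriptions without a test.

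All 3 groups were untreated tail epidermis from adult, wild type, female C57BL6/CBA mice of matched age. They differed in the compartment that was dissected by hand and pooled, and each gave 3 arrays from samples labelled as biological replicates. No source used here gives the age or the number of mice in a pool. P-values below therefore measure the spread between pooled dissections, with a precision limited by 3 arrays per group.

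A gene can give several transcripts, because it can start at different promoters, join different exons by splicing and end at different polyadenylation sites. Splicing regulators such as the ESRP proteins hold epithelial exons in or out of a transcript, and SR proteins, hnRNP proteins and the CLK and SRPK kinases act more widely. In the skin, receptors, cytolinkers and actin regulators are known for isoforms that differ between epithelium and mesenchyme. No source used here gives the position, exon or sequence of a probe set, so the index tells that a probe set departed from its gene and not which transcript it read.

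For 9 of 9 arrays the array file name in the description and the sample title pointed to different compartments, and groups follow the titles. The 3 highest arrays were those titled SG for the sebocyte marker list (12 genes measured), those titled HF for a list of inner root sheath and hair shaft genes (9 measured) and the resting follicle list (8 genes), and those titled IFE for the suprabasal list (8 genes). For the resting follicle list HF lay only narrowly above SG, at centred mean log2 levels of 0.58 to 0.63 against 0.41 to 0.56. SG replicate 3 stood apart from the other SG arrays in the hair shaft list, with a centred mean log2 level of 1.36 against -1.67 and -1.38, and it had the highest melanocyte and fibroblast lists of the 9 arrays. Median intensities lay between 176 and 234 per array. The index of all 89440 probe sets correlated at 0.880 to 0.955 between arrays of the same compartment and at 0.841 to 0.931 between compartments, across probe sets that share genes and arrays.

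Members were mostly lower. Of the 641 members (0.717% of the 89440 probe sets), 462 in 376 genes had a lower index in IFE (0.517%) and 179 in 136 genes a higher one (0.2%). The same rule turned on SG kept 818 probe sets (0.915%), of which 379 were higher (0.424%) and 439 lower there (0.491%), and turned on HF it kept 269 (0.301%), of which 185 were higher (0.207%) and 84 lower (0.0939%). Any separation of the 3 IFE arrays from the other 6, whatever its size, was found for 7973 probe sets (8.91%), and differences of 1 or more from both compartments without that separation for 776 (0.868%). The median of the smaller difference was 1.20 for the higher members, up to 3.06, and 1.22 for the lower members, up to 4.50. In absolute size of the smaller difference, just inside the threshold lay probe sets of Hsdl1 (1.00015), Inpp5b (1.00069) and Zfp516 (1.00118), and just outside it lay those of Tsr1 (0.99988), Cspp1 (0.99985) and Snx18 (0.99856). Without SG replicate 3 the rule kept 639 probe sets, 556 of them among the 641. Without IFE replicate 1 it kept 1106 probe sets, 565 of them among the 641.

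An index can depart because the probe set differed, because the rest of the gene differed, or because both did. With a difference of up to 0.5 (IFE minus the mean of SG and HF, log2) counted as still, the probe set differed while its gene was still for 235 members (36.7%, against 15.9% of all 89440 probe sets). In 186 members (29.0%, against 10.5%) the gene differed and the probe set was still. These were 172 lower members, all in genes higher in IFE, and 14 higher members in genes lower in IFE. Both differed in the same direction for 113 members (17.6%, against 24.9%) and in opposite directions for 107 (16.7%, against 0.246%). The shares follow from the rule and are descriptions. So for nearly 3 in 10 members the probe set itself lay within 0.5 of the mean of the other compartments in IFE, and its gene did not.

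**Figure D1:**
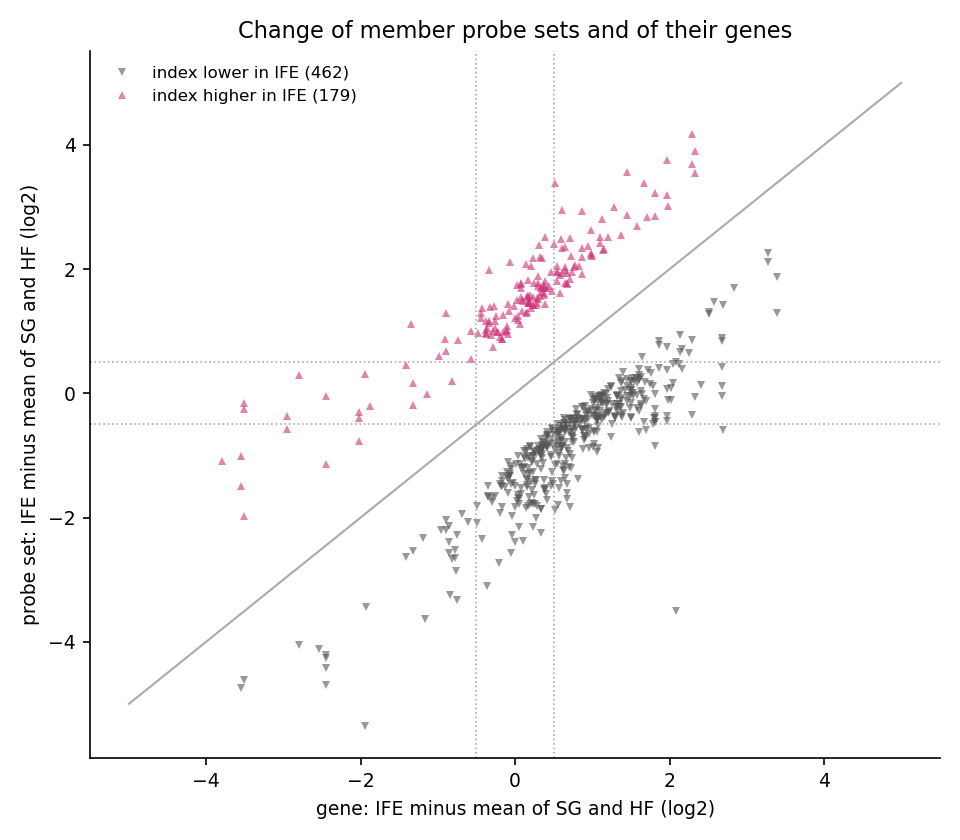
Each point is 1 of the 641 members: the difference of its gene (x axis) and of the probe set itself (y axis), both as IFE minus the mean of SG and HF in log2 units. The diagonal marks equal differences and the dotted lines mark 0.5 on either side of 0. Most of the 462 lower members (grey) lie at genes that were higher in IFE, 291 of them by more than 0.5. These counts have no share over all probe sets beside them. Without further normalization, the median difference over all genes was 0.06 for IFE minus SG and 0.07 for IFE minus HF.

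The members were not dim by their medians, though their lower quartiles lay below that of all probe sets. The median log2 intensity over all arrays was 7.89 for higher members and 8.19 for lower members, against 8.23 for all 89440 probe sets. Lower quartiles were 6.58 and 7.14, against 7.32. Levels over all arrays do not show a compartment in which a probe set was dim. Of the 641 members, 31 lay under 6 in every compartment, a count with no share over all probe sets beside it. Some had stood far from their gene in SG and HF already: 18.6% of the lower members lay 2 or more above the gene there (4.72% of all probe sets), and 26.3% of the higher members lay 2 or more below it (6.66%). Members also sat in genes that differed themselves. The gene differed by 1 or more in either direction for 40.3% of the lower members and 24.0% of the higher members, against 6.92% of all probe sets. Genes with lower members had a median of 16 probe sets and those with higher members 14, against 12 over the eligible genes.

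**Figure D2:**
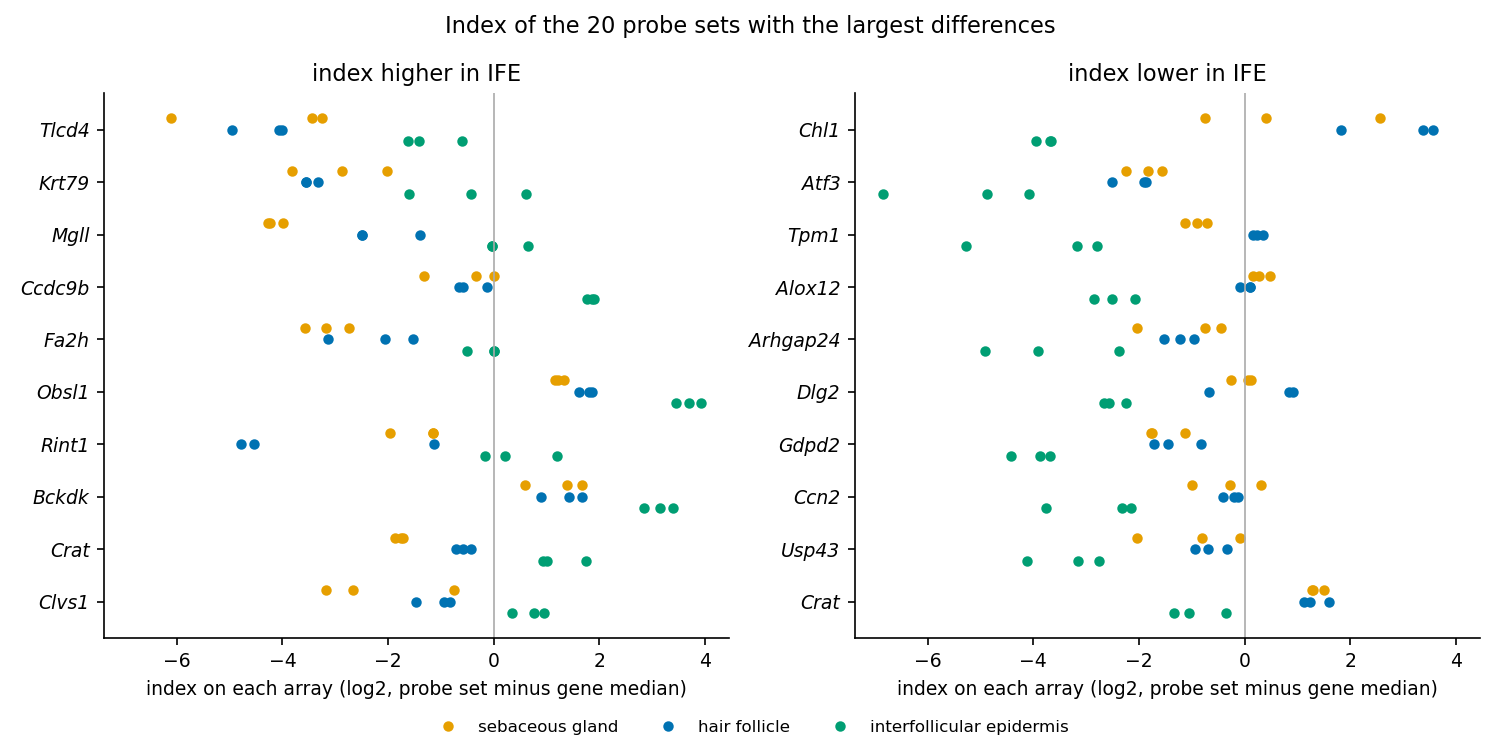
Index on each of the 9 arrays (x axis, log2, probe set minus gene median) for the 10 higher and the 10 lower members with the largest smaller difference, 1 probe set per gene, with 3 points per compartment. The IFE points lie beyond all SG and HF points of the same probe set, as the rule requires, and several IFE triplets spread over more than 1 unit (Tpm1, Arhgap24, Atf3).

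The largest departure was a single probe set (5357935) of Chl1, an L1-type cell adhesion molecule. Its log2 intensity was 6.17, 6.84 and 6.04 on the IFE arrays, 7.57, 8.26 and 10.11 on the SG arrays and 11.46, 10.40 and 11.38 on the HF arrays (replicates 1 to 3 throughout). The groups did not overlap, and the SG arrays spread over more than 2 units with replicate 3 the highest. The other 32 probe sets of Chl1 went the other way, each higher in IFE by 1.21 to 2.73, and the gene median was 10.11 in IFE against 7.90 in SG and 8.15 in HF. The mean index was -3.76 ± 0.16 (SD, n = 3) in IFE, 0.74 ± 1.68 in SG and 2.93 ± 0.95 in HF.

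Probe sets that were themselves low in IFE while their gene was still were led by Arhgap24, a Rac-directed GTPase-activating protein, and Usp43, a ubiquitin-specific protease. The Arhgap24 probe set 5107382 read 4.17, 3.53 and 5.79 in IFE against 7.69, 7.68 and 5.88 in SG and 6.36, 6.38 and 6.47 in HF. The IFE values lay below all others, closely so for IFE replicate 3 and SG replicate 3. A further pair of its 12 probe sets were also lower members, at differences of -1.86 and -1.01 for the probe set. The gene median differed by 0.33, but the other 9 probe sets of the gene had a median difference of 0.86, from -0.66 to 1.06. Of these 9, 2 lay within 0.5 of no difference. The Usp43 probe set 4394477 read 3.25, 4.38 and 3.88 in IFE, 4.97, 7.03 and 6.48 in SG and 6.96, 6.25 and 6.79 in HF, among 17 others that differed by -0.90 to 0.53. With log2(value + 16) in place of log2, which weighs dim values less, its smaller difference was -1.59 in place of -2.36. Ccn2, a matricellular growth factor, had 1 of 6 probe sets lower by 3.64, at 5.15, 3.49 and 5.07 in IFE and between 7.77 and 9.05 on the other arrays. Its remaining 5 probe sets were lower by 0.41 to 1.24.

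Probe sets that were themselves higher in IFE by 1.99 to 3.39, in genes that differed by 0.60 or less, included those of Ccdc9b, Obsl1, Bckdk, Rint1 and Clvs1. Obsl1, an obscurin-like cytoskeletal adaptor, had 1 probe set (4645033) at 11.18, 10.66 and 10.46 in IFE against 8.40, 8.42 and 8.19 in SG and 8.89, 9.08 and 8.92 in HF. Its gene median stayed between 7.08 and 7.20 in the 3 compartment means, so the probe set lay above its gene everywhere and furthest in IFE. Bckdk, the kinase that restrains branched-chain amino acid breakdown, showed the same at a higher level: 11.35, 11.58 and 11.92 in IFE and 9.04 to 10.05 on the other arrays. The Ccdc9b probe set 4807497, of a coiled-coil protein, lay at 9.50, 9.64 and 9.72 in IFE and between 5.97 and 7.18 elsewhere, and 8 of its other 11 probe sets were within 0.5 of no difference. The Clvs1 probe set 4473198 (clavesin, a lipid-binding protein of the endosomal pathway) read 7.41, 8.46 and 7.91 in IFE and 4.60 to 6.82 elsewhere. Rint1, a Golgi-tethering protein, was the least steady of these. Its probe set 5233615 read 8.67, 8.20 and 7.69 in IFE and 6.22, 5.27 and 6.19 in SG, but 2.44, 6.55 and 2.11 in HF, where 1 array stood 4 units above the others.

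Most genes had 1 member, 382 of 481, and 99 genes held 2 or more, together 259 of the 641. In 51 of these 99 all members were lower, in 17 all were higher, and in 31 the gene held both directions. Members of a gene share its median, so they are not independent of each other.

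**Figure D3:**
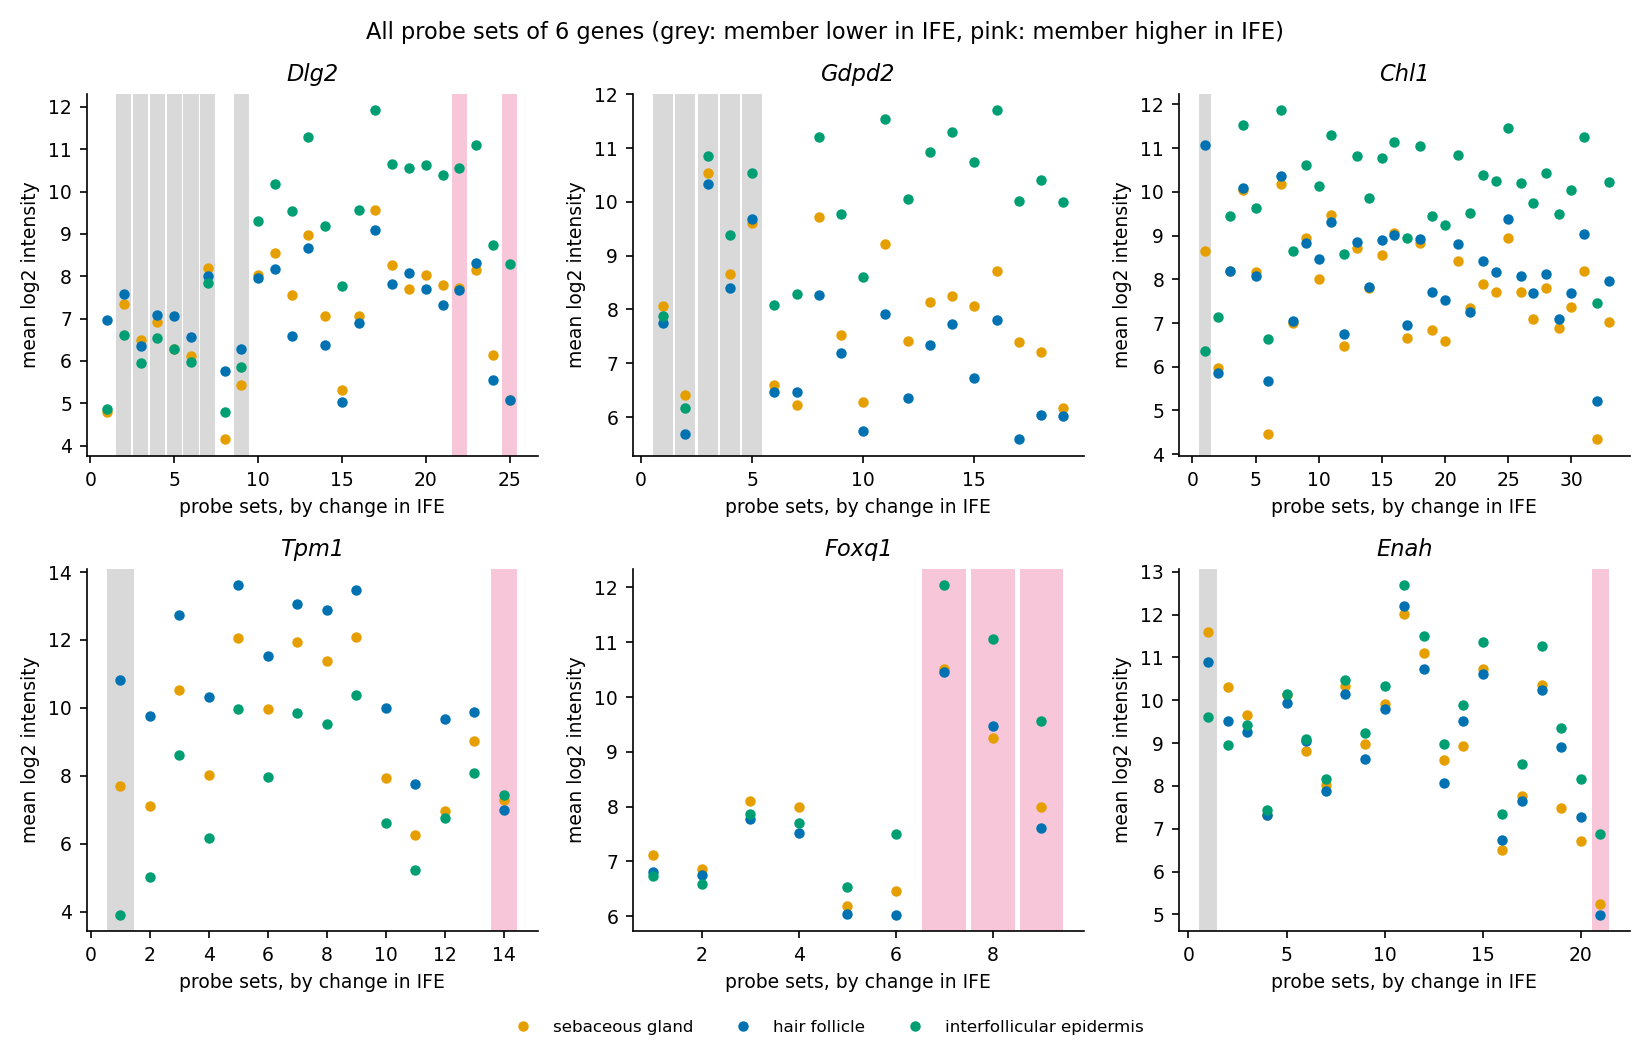
Mean log2 intensity (y axis) of every probe set of Dlg2, Gdpd2, Chl1, Tpm1, Foxq1 and Enah in the 3 compartments, with probe sets ordered by their difference in IFE and not by their place in the gene. Grey bands mark lower members and pink bands higher members; in Dlg2 and Gdpd2 a block of probe sets differs little while the rest are far brighter in IFE, and in Chl1 a single probe set is lower where the other 32 are higher.

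Dlg2 held the most members, 9 of its 25 probe sets. It encodes PSD-93, a scaffold of the membrane-associated guanylate kinase family best known from synapses. The probe sets fell into separate blocks: 16 were higher in IFE by 1.32 to 3.23, and 9 lay between -1.03 and -0.01, with none between the blocks. Of the 9, 7 were lower members. The probe set 5363284 read 6.36, 6.82 and 6.66 in IFE, 7.12, 7.43 and 7.45 in SG and 7.68, 7.08 and 7.98 in HF. Probe set 5155549, of the other block and a higher member, read 8.16, 8.79 and 7.93 in IFE, 5.74, 3.36 and 6.10 in SG and 4.92, 6.10 and 4.19 in HF. So 16 probe sets of Dlg2 were brighter in IFE than in the other compartments and 9 were not.

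Gdpd2, a glycerophosphodiester phosphodiesterase, showed the same arrangement, with 5 lower members and 14 others. The others were higher in IFE by 1.56 to 3.90, whereas the 5 members differed by -0.04 to 0.89. The members differed in brightness. Probe set 5495306 stood at 11.19, 10.60 and 10.76 in IFE, 10.57, 10.65 and 10.41 in SG and 10.31, 10.36 and 10.32 in HF. Probe set 5186176 stood at 7.85, 7.77 and 8.01 in IFE, 7.99, 8.35 and 7.88 in SG and 7.91, 7.69 and 7.67 in HF.

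The same kind of level member inside a gene that was higher in IFE recurred in Samhd1, Rps6ka6, Mtm1, Lrp4 and Klf4. Samhd1, a dNTP hydrolase, had 4 such lower members of 23, for example 4319771 at 10.93 to 11.51 in IFE and 11.27 to 11.46 on the other arrays, while 15 of the 18 probe sets that were no members were higher by 1 or more. It also had a higher member, which was higher in IFE by 2.56. Rps6ka6, a ribosomal S6 kinase, and Mtm1, a phosphoinositide phosphatase, had 4 lower members each, which differed by -0.20 to 0.27 and by -0.39 to 0.18, while their other probe sets had a median difference of 1.77 and 1.60. Lrp4, a co-receptor of agrin and a Wnt modulator, had 3 of 41, at -0.28 to 0.40 in a gene higher by 1.60. Klf4, the transcription factor of epidermal barrier formation, had 2 of its 6 probe sets within 0.24 of no difference and 4 that were higher by 1.42 to 2.14.

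Some members stayed level in a gene that was lower in IFE. Mgll, the monoglyceride lipase, had gene medians of 12.08 in SG, 9.61 in HF and 7.34 in IFE. Its probe set 5532896 read 7.74, 7.96 and 8.05 in SG, 7.90, 7.57 and 6.98 in HF and 7.68, 7.41 and 7.52 in IFE, and was nearly level. A higher index in IFE was thus reached without a brighter probe set. Of the 14 probe sets of Mgll, 4 were members: 3 higher, and 1 lower that dropped further than its gene, to 5.62, 6.57 and 6.72 in IFE from 12.20, 12.14 and 12.03 in SG.

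Tlcd4, a TLC-domain membrane protein, had the highest smaller difference of the higher members, 3.06. Its probe set 5094510 read 4.84, 7.74 and 6.63 in IFE, 4.33, 7.61 and 6.81 in SG and 5.29, 6.35 and 6.25 in HF, and its 9 probe sets that were no members were lower in IFE by 1.68 to 4.25. The levels overlapped fully, and the index of the SG arrays spread widely (-4.27 ± 1.59, SD, n = 3). In Fa2h, the fatty acid 2-hydroxylase, all 9 probe sets were lower in IFE. Of its 2 higher members, 4407116 was lower by 1.01. Its 1 lower member was lower by 4.74 and the 6 that were no members by 3.10 to 4.19. Plin2, the coat protein of lipid droplets, held 2 higher members that differed by -0.57 and -0.37, against -3.31 to -2.37 for its other 7. Scd1, the stearoyl-CoA desaturase, had 1 probe set of 10 that was higher in IFE (9.86, 10.30 and 10.28) than in SG (9.01, 8.34 and 9.56) and HF (8.91, 9.16 and 9.18), while the other 9 were lower by 0.64 to 1.42. Of the 4 sebocyte markers with an eligible gene, 3 held a member, 6 of 34 probe sets (17.6%, against 0.717% of all). The summed intensity of the 12 sebocyte markers was 27748 to 38414 in SG, 5670 to 9794 in HF and 2339 to 3392 in IFE, and its part in these index values was not tested. In bulk samples, fewer cells of a type and less RNA per cell cannot be told apart.

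Crat, carnitine acetyltransferase, held 6 members among 16 probe sets, 4 lower and 2 higher. The lower members were the ones that dropped most. Probe set 5614562 read 11.65, 12.02 and 11.34 in SG, 10.25, 10.24 and 10.57 in HF and 5.80, 6.91 and 6.21 in IFE, and the 4 differed by -4.70 to -4.22 against -2.45 for the gene. The higher member 5311623 was level, at 8.64, 8.65 and 8.30 in SG, 8.30, 8.69 and 8.41 in HF and 8.59, 8.28 and 8.49 in IFE. Alad, of heme synthesis, and Sulf2, a heparan sulfatase, likewise held members of both directions in genes lower by 1.32 and 1.41. Krt79, a keratin of the sebaceous duct and infundibulum, had 1 higher member of 14 that was lower in IFE by 1.09 where the other 13 were lower by 3.12 to 4.32.

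Tpm1, tropomyosin of actin filaments, whose gene is known for many promoter and splice isoforms, held 1 member of each direction. All of its 14 probe sets but 1 were lower in IFE, by 1.37 to 5.35. The lower member 4404559 read 4.77, 2.31 and 4.66 in IFE, 7.22, 7.44 and 8.45 in SG and 10.86, 10.65 and 10.97 in HF, so the compartments were fully apart and HF was the highest. The higher member 5435831 was level, at 7.65, 7.22 and 7.47 in IFE, 7.26, 7.29 and 7.32 in SG and 7.24, 7.17 and 6.58 in HF. With log2(value + 16) the smaller difference of 4404559 was -1.83 in place of -2.82. Of the 6 muscle markers measured, 1 was called as a gene in IFE against HF (Acta2, smooth muscle actin, lower by 1.96) and none against SG. The median difference of the list was -0.05 against HF and -0.06 against SG. Tagln was about as high in IFE (7.14, 7.10 and 7.06) as in HF (7.20, 7.33 and 7.08), while Acta2 was at 7.06, 7.31 and 7.07 in HF, 5.90, 6.02 and 5.83 in SG and 5.09, 4.90 and 5.56 in IFE. The summed intensity of the list was 809 to 900 in HF, 700 to 760 in SG and 674 to 776 in IFE. Their part in the Tpm1 values was not tested. Myh11, smooth muscle myosin and itself on that marker list, had 1 lower member of 23 probe sets, at 12.54, 12.54 and 11.61 in SG, 11.48, 9.98 and 11.07 in HF and 9.27, 9.22 and 9.64 in IFE, while its gene median was about the same in all compartments (7.33, 7.35 and 7.39).

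Among basal keratinocyte and basement membrane genes, 15 of 463 probe sets in 13 eligible genes were members (3.24%, against 0.717% of all probe sets), 8 higher and 7 lower, in Plec, Dst, Col7a1, Col17a1 and Col4a2. The list was chosen with earlier results of these data known, and the share is a description. Plectin, the cytolinker that ties keratin filaments to hemidesmosomes and has many alternative first exons, had 2 higher and 4 lower members among 64 probe sets. The lower member 4945192 read 9.21, 9.18 and 9.26 in IFE, 9.68, 10.10 and 10.54 in SG and 11.33, 10.76 and 11.07 in HF. The higher member 5302150 read 10.16, 10.22 and 10.38 in IFE, 8.01, 6.27 and 8.35 in SG and 8.54, 8.16 and 8.08 in HF. The remaining 58 probe sets of Plec lay between -0.60 and 1.92.

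Dst, which encodes the hemidesmosome protein BPAG1 and its neuronal and muscle isoforms, had 2 higher members of 104 probe sets. The larger, 4796204, read 7.94, 8.75 and 8.92 in IFE, 6.25, 5.56 and 4.32 in SG and 6.01, 6.59 and 7.37 in HF. The members were higher in IFE by 2.52 and 1.44, and the other 102 probe sets lay between -0.60 and 2.11. The smaller member thus lay within the range of the others. Col7a1, the collagen of anchoring fibrils, had 4 higher members of 64, which were higher in IFE by 1.81 to 2.05 where the other 60 had a median of 0.55 and reached 1.84. Its members thus lay at the upper end of a continuous range and were not set off from it. Col17a1, the transmembrane collagen of hemidesmosomes, had 1 lower member of 41 (9.85, 9.96 and 9.89 in IFE and 10.04 to 10.94 elsewhere), while its other 40 were higher in IFE by 0.20 to 1.91. Col4a2, a basement membrane collagen, had 2 lower members of 23 that were lower by 1.84 and 1.41 in a gene that was still.

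From the list of genes with known epithelial splice or promoter isoforms, 12 of 941 probe sets were members (1.28%), in 4 of 37 eligible genes: Plec, Dst, Enah and Fgfr2. The members of Plec and Dst were also counted in the basal keratinocyte list above, so the shares of these lists are not separate observations. Enah, an actin regulator with an epithelial exon, was still in its gene median (9.25 in SG, 9.31 in HF and 9.36 in IFE). One of its 21 probe sets, 5056475, read 8.99, 10.11 and 9.74 in IFE, 11.57, 11.23 and 11.95 in SG and 10.97, 10.92 and 10.77 in HF. Another, 5394607, went the other way at 6.12, 7.63 and 6.92 in IFE against 4.55 to 5.89 elsewhere. Both stood clear of the other 19, which lay between -0.96 and 1.17. These 19 had a median difference of 0.57, and 8 of them lay within 0.5 of no difference. Fgfr2, the FGF receptor whose IIIb exon is epithelial, was higher as a gene in IFE (9.43, against 7.89 in SG and 8.33 in HF), and 2 of its 26 probe sets stayed level. These were 4523298, at 9.65, 9.26 and 9.31 in IFE and 9.34 to 9.62 elsewhere, and 4890160, at 6.17, 6.23 and 6.31 in IFE and 5.99 to 6.50 elsewhere. The other 24 were higher by 0.30 to 2.01. The remaining 33 eligible genes of the list held no member.

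Among cornification and barrier genes, 5 of 242 probe sets were members (2.07%), in Krt2, Krt10, Aloxe3 and Abhd5. Krt2, a keratin of the upper epidermal layers, had 1 level probe set, 5152060, at 13.04, 12.75 and 12.69 in IFE, 12.95, 13.83 and 13.62 in SG and 13.16, 12.74 and 12.85 in HF. A second, 5130220, was higher in IFE by 3.76 and the gene by 1.97. Krt10, its acidic suprabasal partner class, had 1 level probe set of 10 at 12.91, 12.99 and 12.81 in IFE and 12.57 to 13.29 elsewhere, where the other 9 were higher by 0.50 to 2.14. With quantile normalization the smaller difference of this probe set was -0.92, short of the threshold. Aloxe3, the epidermal lipoxygenase of the barrier, had 1 lower member of 17 that was higher in IFE by 1.47, at 10.30, 10.81 and 10.47, where its gene was higher by 2.58. Abhd5, the lipase co-activator that is mutated in Chanarin-Dorfman syndrome, had 1 level probe set (7.41, 7.22 and 7.46 in IFE and 7.48 to 8.02 elsewhere) in a gene higher by 1.06.

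Members in other keratin, junction and lipoxygenase genes took several forms. Krt84, on 12 probe sets, held 1 level lower member and 2 higher members that were higher in IFE by 3.55 and 3.90, in a gene higher by 2.33. Krt75, a companion layer keratin of the follicle, held 2 members of each direction among 9 probe sets. Against the mean of SG and HF, the higher member 5605714 was higher in IFE by 1.29. The 5 probe sets that were no members were lower by 1.45 to 2.11. The gene median was 7.88 in SG, 9.50 in HF and 7.80 in IFE, so as a gene it was lower than in HF and about level with SG. Evpl, envoplakin of the desmosome and cornified envelope, was the only gene with a member on the desmosome and adherens junction list (1 of 287 probe sets, 0.348%). That probe set read 8.70, 8.49 and 8.81 in IFE, 9.22, 8.76 and 10.24 in SG and 11.09, 10.71 and 11.16 in HF. Alox12, the 12-lipoxygenase, held 2 members of each direction among 16 probe sets. Its probe set 5497865 was level, at 6.62, 7.26 and 7.56 in IFE and 7.24 to 7.91 elsewhere, while 4885107 read 7.96, 9.02 and 8.53 in IFE, 4.43, 4.36 and 2.32 in SG and 5.50, 6.05 and 3.36 in HF.

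Foxq1, a forkhead factor known from hair, had 3 higher members, among them 5099859 at 12.18, 11.91 and 12.04 in IFE, 10.82, 10.27 and 10.43 in SG and 10.57, 10.46 and 10.35 in HF. The 3 members and 1 further probe set were higher in IFE by 1.27 to 1.75, and the other 5 lay between -0.24 and 0.42, so the gene median was level (7.85 in SG, 7.49 in HF and 7.75 in IFE). Gata6, a factor of the follicle junctional zone and sebaceous duct, had 2 lower members and 1 further probe set that were lower in IFE by 2.52 to 2.83. Its remaining 7 lay between -0.90 and 0.12. Member 5417610 read 5.08, 5.12 and 5.86 in IFE, 7.97, 7.89 and 7.66 in SG and 7.89, 7.47 and 8.34 in HF. Fzd7, a Wnt receptor, had 3 lower members at -2.57 to -2.13 among 8 probe sets, the brightest of the gene in SG and HF. Atf3, a stress-induced factor, was higher as a gene in IFE by 2.69, with 1 probe set of 7 that stayed dim (4.09, 5.32 and 5.29 in IFE and no higher than 5.85 elsewhere). A second Atf3 member was higher in IFE by 1.43, less than its gene.

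Genes with several members followed a few patterns. In 42 genes all members were lower and the gene was higher in IFE by more than 0.5; besides those above they included Ano1, Cyp39a1, Inpp5b, Mdn1 and Slc22a4 with 3 members each, and with 2 each Acap3, Aplf, Ctnnbip1, Dnmt1, Elovl1, Exph5, Hal, Hlf, Hpgd, Ilk, Luc7l2, Ly6m, Mapre2, Mbp, Metap2, Mink1, Moxd1, Neo1, Nfkbiz, P3h2, P4ha1, Rel, Relch, Rsbn1, Spryd7, Tnfaip1, Wnk1 and Zfp622. Hal, histidine ammonia-lyase of the upper epidermis, was such a gene at the upper end: both members were higher in IFE, by 2.12 and 2.27. Its other 21 probe sets were higher by 2.18 to 3.93, so the members lay at the lower end of the gene and were not set off from it. In 7 genes (Arhgap24, Col4a2, Col6a1, Dctn1, Dido1, Gse1 and Mark4) the gene was still and all members were lower, by 1.01 to 2.24. Mark4, a microtubule affinity-regulating kinase, had 2 of 16 lower by 1.68 and 1.63, and its other 14 lay within 0.5 of no difference. Dctn1, of the dynactin complex, had 2 of 22 lower, among them 4984975 at 6.77, 7.30 and 6.29 in IFE and 8.29 to 8.88 elsewhere.

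All members were higher in a still gene for Dhx16, Dlx2, Dst, Ehbp1l1, Foxq1, Gtf2a1, Mmp2, Nudt4, Tceanc2 and Trerf1. Ehbp1l1, an adaptor of membrane traffic, had 4 of 22, which were higher in IFE by 1.59 to 1.75. Dhx16, an RNA helicase of the spliceosome, had 4 of 18, higher by 0.96 to 1.16 while its gene was lower by 0.38. Higher members in genes higher by 0.54 to 0.67 were found in Col7a1, Kctd12, Paqr5 and Rassf5, and in genes lower by 0.57 to 2.96 in Cpne8, Cryab and Plin2. Members of both directions in a gene higher in IFE were found, besides those above, in Ablim1, Ago4, Arntl, Il1f5, Itgb5, Map4k5, Pld1, Sdr9c7, Septin8, Slc37a2, Slc6a9 and Tspan9, and in a still gene in Atad2, Enah, Khdc4 and Qsox2. Gene models without an official name held 9 members in 4 models.

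Listed factors that process RNA were tested as genes, and 3 of the 75 measured hold a member. Across 14543 genes in limma (called at an absolute log2 difference of at least 1 and an adjusted p, by Benjamini-Hochberg, under 0.05), 1384 differed between IFE and SG (9.52%; 1013 higher in IFE, 6.97%, and 371 lower, 2.55%) and 921 between IFE and HF (6.33%; 488 higher, 3.36%, and 433 lower, 2.98%). The contrasts share the IFE arrays. With quantile normalization the splits were 478 higher and 613 lower, and 355 higher and 498 lower. It moved the median difference of all genes against SG from 0.06 to -0.16.

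Of 75 splicing and polyadenylation factors measured, 9 were higher and 2 lower in IFE than in SG, and 2 were higher and none lower against HF. Their median difference from SG was 0.30, against 0.06 for all genes, and with quantile normalization -0.03 against -0.16. Against SG, Esrp1, the epithelial splicing regulator, was higher by 1.10 ± 0.17 (SE, n = 3 per group, limma adjusted p = 0.00084), at 11.68, 11.94 and 11.81 in IFE, 10.53, 10.72 and 10.87 in SG and 11.20, 11.00 and 11.28 in HF. Its levels did not overlap between compartments, and the difference from HF, 0.65, was short of the threshold of 1. The polypyrimidine tract binding protein Ptbp3 was higher than in SG by 1.16, the SR protein kinases Clk1, Clk3, Clk4 and Srpk1 by 1.12, 1.43, 1.12 and 1.30, and the cleavage and polyadenylation factors Cpsf2, Pcf11 and Rbbp6 by 1.06, 1.07 and 1.15. The gene level of Pcf11 entered the choice of its member. Lower than in SG were Rbm47, an epithelial RNA-binding protein (-1.61 ± 0.24, limma adjusted p = 0.000701), and Khdrbs3, a STAR family splicing regulator (-1.88 ± 0.25, limma adjusted p = 0.000373). Both were also called lower in HF than in SG, at -1.52 and -1.22. Their differences of IFE from HF, -0.09 and -0.66, were not called.

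Against HF, Srpk1 was higher by 1.46 ± 0.22 (limma adjusted p = 0.00122) and the muscleblind-like regulator Mbnl3 by 1.25 ± 0.21 (limma adjusted p = 0.00212). Srpk1 stood at 10.27, 10.96 and 10.93 in IFE and between 8.97 and 9.64 on the other 6 arrays, and was the factor that passed in both comparisons. The calls against SG depended on the scaling: with quantile normalization Clk3 was the only factor still called higher than in SG, at 1.01, Srpk1 was at 0.91 and Esrp1 at 0.78, and 3 were called lower, Rbm47, Khdrbs3 and Pcbp2. Clk3 was not higher than in HF: it stood at 10.53, 10.73 and 10.57 in IFE, 11.14, 10.75 and 11.36 in HF and 8.99, 9.12 and 9.45 in SG, a difference from HF of -0.47. Both calls against HF were also made with quantile normalization. None of 16 hnRNP genes was called in either comparison with limma, and 1 against SG and 3 against HF had an unadjusted p under 0.05. By list, members were 1 of 262 probe sets of the splicing regulators (Rbms1, 0.382%) and 0 of 239 of the SR and SR-like proteins. They were 0 of 158 of the hnRNP proteins and 2 of 263 of the cleavage and polyadenylation factors (Cpsf7 and Pcf11, 0.760%), against 0.717% of all probe sets. Members in genes off these lists, such as Dhx16, Rbmx, Srek1 and Clasrp, are not in these counts.

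Pcf11 belongs to both accounts, as a gene higher in IFE than in SG and with 1 lower member. That probe set of 21 read 7.85, 7.75 and 8.00 in IFE, 8.84, 8.17 and 8.03 in SG and 8.40, 8.61 and 8.52 in HF. It was lower in IFE by 0.56 where its gene was higher by 0.95. Cpsf7 had 1 of 13 at 7.50, 7.96 and 8.24 in IFE and 8.28 to 9.04 elsewhere, and Rbms1 1 of 23 at 8.60, 8.37 and 8.00 in IFE and 8.49 to 9.04 elsewhere.

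The contrast of HF against SG was fitted across all probe sets, but the SG and HF index values of the members entered the rule, which keeps both on the same side of IFE. Values of the members in this contrast are therefore descriptions. In limma, 128 of 89440 index values differed between HF and SG (0.143%; 69 higher in HF, 0.0771%, and 59 lower, 0.066%), at the same thresholds. Among these were 6 of the 641 members (0.936%), a share from which nothing is read. Higher in HF than in SG were Grin2d 4700459, an NMDA receptor subunit (2.48 ± 0.36 SE, n = 3 per group), Plin2 4466792 (2.15) and Mgll 5532896 (2.04). Lower in HF were Tpm1 5435831 (-2.24 ± 0.30), Virma 5365211, of the RNA methylation complex (-1.78), and Zfp622 4610757, a zinc finger protein (-1.47).

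The compartments were apart in Zfp622 and Grin2d, and in Virma IFE replicate 2 lay at the level of HF replicate 2. The Zfp622 probe set read 12.38, 12.45 and 12.50 in SG, 10.97, 11.23 and 11.07 in HF and 9.45, 10.40 and 9.80 in IFE, with a gene median between 8.43 and 9.01. The Virma probe set read 10.38, 10.54 and 10.25 in SG, 9.16, 8.94 and 9.38 in HF and 7.81, 8.93 and 7.75 in IFE. The Grin2d probe set was highest in HF, at 11.88, 11.03 and 11.67, with 8.68, 8.50 and 10.07 in SG and 7.37, 7.58 and 7.75 in IFE. These calls were not stable. None of the 6 was called in limma when any of SG replicate 1, SG replicate 2, HF replicate 1, HF replicate 3 or an IFE array was left out, with the letter that ends each array's name as a block, or in a fit of the SG and HF arrays alone, while 109 to 147 of the members had an unadjusted p under 0.05 in those fits other than the block, where 106 had. Without SG replicate 3, 22 members were called. Leaving out an IFE array does not change the difference of HF from SG, only the estimate of the spread. The letters of SG replicate 1, HF replicate 1 and IFE replicate 3 each stand on a single array, so with the block these arrays add nothing. These fits have fewer residual degrees of freedom, so an absent call does not tell lost precision from an unsteady difference.

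For the lower members the median difference of HF minus SG was -0.13, and 301 of 462 (65.2%) were below 0, against a median of 0.00 and 49.7% over all 89440 probe sets. For the higher members it was 0.13, with 62 of 179 (34.6%) below 0. Not every class went this way: the 49 lower members that differed the same way as their gene had a median of 0.04 with 44.9% below 0, and the 8 higher members opposite to their gene had -0.41 with 62.5% below 0. These shares are descriptions, since the rule used the SG and HF values and members share genes and arrays.

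**Figure D4:**
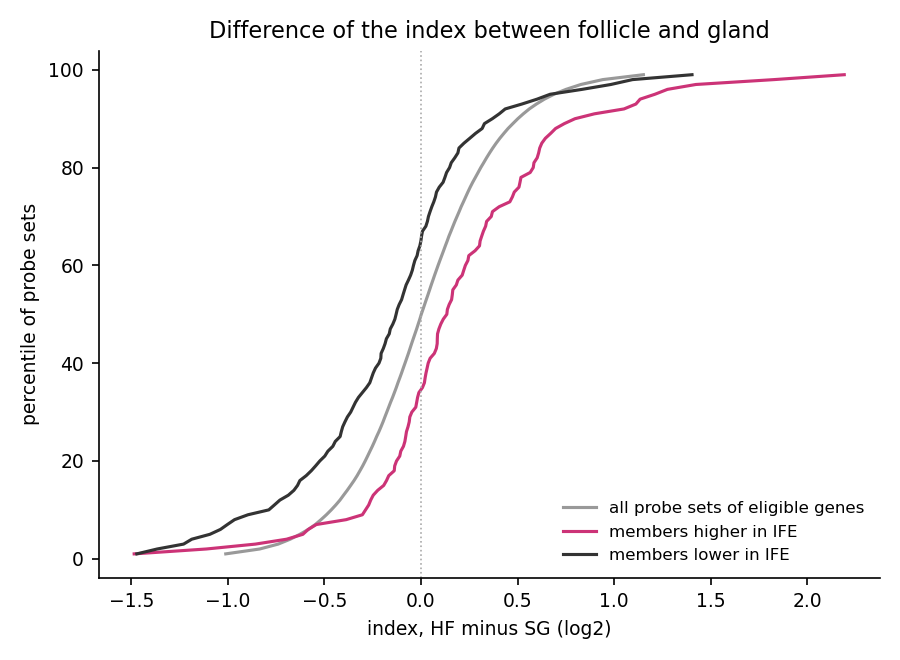
Percentiles (y axis) of the index difference HF minus SG (x axis, log2) over all 89440 probe sets of eligible genes, the 179 higher members and the 462 lower members. The curve of the lower members lies to the left of all probe sets over most of its range (median -0.13) and that of the higher members to the right (median 0.13).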

How the data were processed

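The deposited values were linear intensities per probe set, made by the authors, with medians of 176 to 234 per array. RMA, Affymetrix Power Tools and mm9 are named in the submitters' processing notes, without versions or roles. No source used here gives the filter that left 154736 probe sets. The log2 was taken with no pseudocount or further normalization. The platform annotation gave 146964 probe sets 1 symbol, 1060 several and 6712 none, and those with 1 symbol were used. Old symbols were updated through RefSeq names for 1712 genes, and 42 were kept because the new name would have joined separate platform genes. Gene levels are medians over probe sets.

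limma 3.58.1 (R 4.3.3; lmFit, eBayes, Benjamini-Hochberg) was fitted to all 9 arrays with 1 mean per compartment, and tested on simulated data. The members, gene lists and tests were chosen with earlier results of these data known. Named were the 10 highest-ranked higher and lower members by the smaller difference, genes with 2 or more members, members on a list, RNA processing factors called, members called between HF and SG and those nearest the threshold. Unnamed gene models were counted only. Alternatives changed the normalization, pseudocount, gene reference, filters, thresholds, blocks and arrays.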

Additional observations from a re-analysis of the deposited data

How the results depend on the processing

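No member turned against SG or HF under any alternative in which it had a value. Leaving out arrays, changing the threshold or filtering genes or probe sets could not turn a member, because the rule separates the arrays. The settings that could were quantile normalization, log2(value + 16), the median of the other probe sets and the joined symbols. Of 757 values of 55 named members, 753 stayed within the spread between replicates. The other 4 moved beyond it and kept their direction. Most of the 757 values came from leaving out arrays. The 641 members became 207 with genes of log2 8 or more, 1712 at a difference of 0.75, 137 at 1.5 and 180 in genes within 0.5 of both compartments. Leaving out 1 array gave 627 to 1106, the highest without IFE replicate 1. Quantile normalization kept 520 of the members among 647, and log2(value + 16) 508 among 612. Added after the data were seen were leaving out both SG replicate 3 and HF replicate 2 (845 members, 491 of the 641) and joining old symbols under new names (651, with all 641).

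The 128 index calls between HF and SG became 311 with log2(value + 16), 248 with the median of the other probe sets, 38 with genes of log2 8 or more, 197 with probe sets of 6 or more and 405 with trend and robust. They became 0 in limma with the letter block (8074 of 89440 at an unadjusted p under 0.05) and 0 in a fit of SG and HF alone (10888), and 0 to 896 without 1 array, 896 without SG replicate 3, 0 without SG replicate 2 or HF replicate 3 and 22 or fewer without any other array. Fits with a block, with fewer arrays or of SG and HF alone have fewer residual degrees of freedom. Their counts therefore do not tell lost precision from an unsteady difference. The replicate block gave 16. Deviations of same-numbered arrays correlated at -0.04 to 0.11, so the numbers were not taken as pairs. The replicate block changed no gene count by over 1.5 times. Genes called between IFE and HF were 921, and 600 among the brighter 50% of genes. Genes called were 1152 to 1761 against SG and 767 to 1151 against HF without 1 array. RNA processing factors called against SG were 11, 4 with quantile normalization and 6 without IFE replicate 2; against HF 2, 1 with the letter block and 4 without IFE replicate 1. No detection calls were used, so signal over background limits what dim probe sets show.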
